A study of Mus musculus with 6 samples.

Results

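The genes described are 45 that encode lysosomal hydrolases, lysosomal membrane proteins, the 3 transcription factors that are known to act on lysosomal genes, and subunits of the V-ATPase. They were chosen by gene symbol. Each gene was read at 1 probe set, a group of array probes summarised to 1 value, that is annotated to it alone; where a gene had several, the one with the highest mean over all 6 arrays was taken. A probe set of their own was found for 43 of the 45, among 22180 such genes and 41345 probe sets in all. Glb1, the lysosomal beta-galactosidase gene, and Atp6v0c, which encodes the main proteolipid of the V-ATPase, had none and were not analysed here. Expression was measured in RAW 264.7 cells, an established mouse macrophage-like line, after transfection with a GapmeR at 50 nM for 48 h. A GapmeR is an antisense oligonucleotide with locked nucleic acid ends, through which RNase H cuts the matching RNA. The Control group (3 samples) received a non-targeting GapmeR, and the Mist-targeted group (3 samples) received one against Mist, a long noncoding RNA of macrophages; all samples share the same line, dose and time. The labels name 1 GapmeR against Mist, and 0 probe sets carried that name in the annotation used, so the level of the target was not analysed here. The comparison asks whether RNA of the lysosomal machinery differs when Mist is targeted.

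Lysosomes degrade proteins, glycans and lipids taken up by endocytosis and phagocytosis or delivered by autophagy, a task that macrophages perform at a high rate. Their hydrolases work at acidic pH, which the V-ATPase maintains: its cytosolic V1 sector hydrolyses ATP and its membrane-embedded V0 sector carries the protons. Many of these genes carry an E-box of the letters CACGTG near their start, to which the related factors TFEB, TFE3 and MITF bind, and are known as the CLEAR network.

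Among the 43 measured genes, cathepsin C (Ctsc) was higher with the Mist-targeted GapmeR and 42 did not pass the test. Ctsc rose 1.77-fold, a log2 difference of 0.83 ± 0.10 (SE, n = 3 per group, limma, adjusted p = 0.0347). The other 42 genes had log2 differences between -0.38 and 0.14. Of the 43 log2 differences 30 were negative and 13 positive, and their median was -0.06, where that of all 22180 genes was 0.01. The lowest values were those of the V1 subunit gene Atp6v1d (-0.38 ± 0.081, adjusted p = 0.144), the glycosidase genes Naglu (-0.33 ± 0.14) and Hexa (-0.30 ± 0.090), the V1 subunit gene Atp6v1a (-0.29 ± 0.10), the transcription factor gene Mitf (-0.26 ± 0.087) and the serine carboxypeptidase gene Ctsa (-0.25 ± 0.085).

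A call is an adjusted p under 0.05 after the Benjamini-Hochberg correction over all 41345 probe sets, of which 0.254% were called. By this rule 1 of the 43 genes was called higher and 0 lower, where 0.212% of all genes were called higher and 0.203% lower. With no adjustment, limma gave 1 higher and 7 lower at a p under 0.05, against 5.24% and 5.79% of all genes. Since 40 of the 43 had a mean log2 expression of at least 7, the 5628 genes at or above that level are given as a second background, a level chosen after the values were seen; it held 0.48% and 0.498% called genes, and at an unadjusted p under 0.05 it held 10.1% higher and 11.1% lower. Of the 40 brighter genes of the lysosome, 17.5% were lower at an unadjusted p under 0.05. The 95% interval of the difference lay within a 1.5-fold change in either direction for 41 of the 43, the exceptions being Ctsc and Naglu, whose interval reached -0.66.

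**Figure D1:**
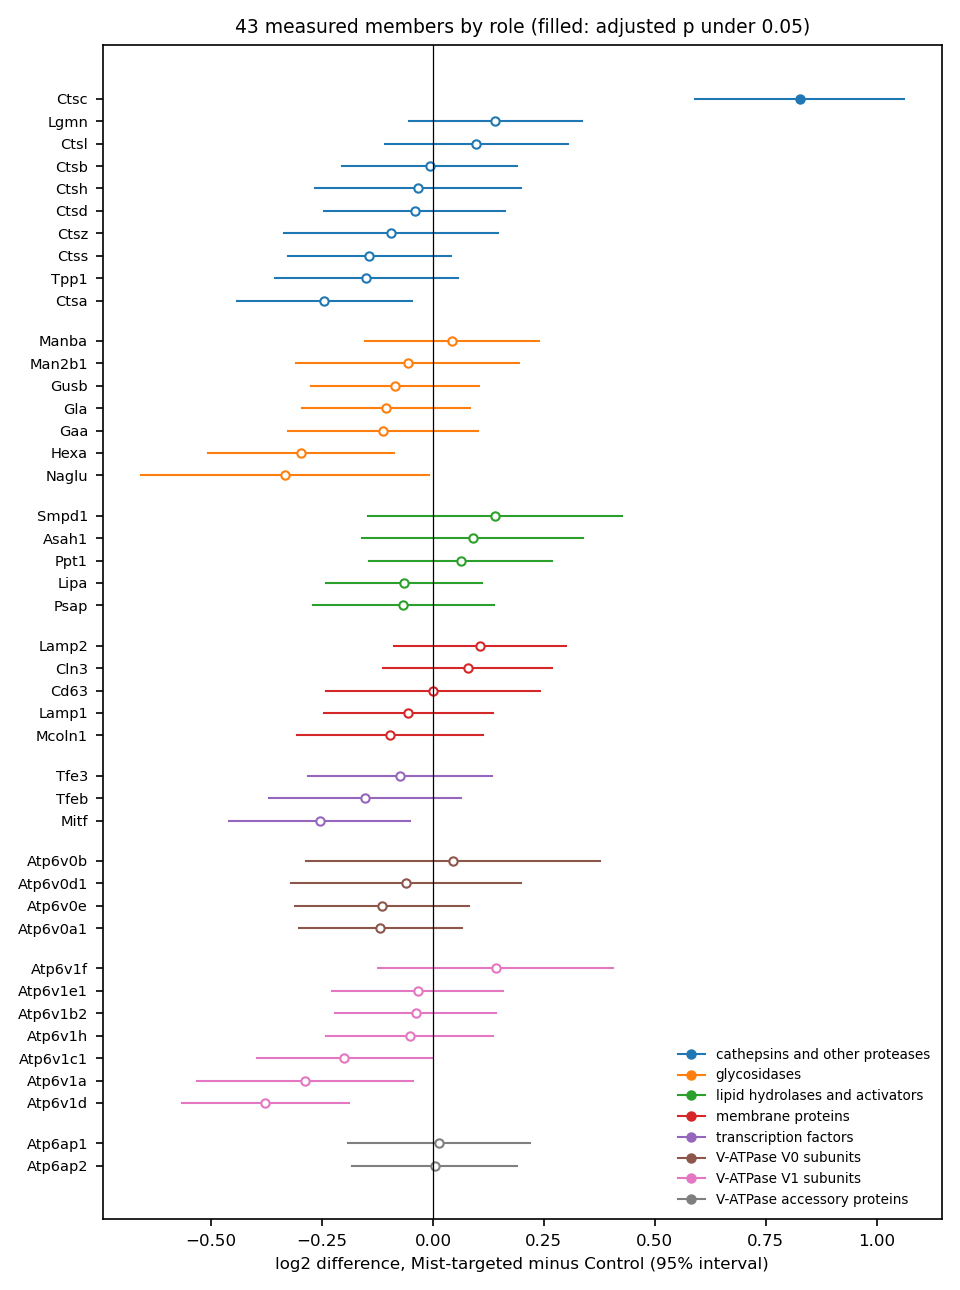
The log2 difference (Mist-targeted minus Control, 3 arrays each) of each of the 43 measured genes, grouped and coloured by role, with its 95% interval from the moderated variance; filled points have an adjusted p under 0.05. Ctsc stands at 0.83, and the other 42 lie between -0.38 and 0.14, of which 30 are below 0.

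Some of the small differences separated the groups. In 15 of the 43 genes every Mist-targeted array lay below every Control array, and in 2, Ctsc and Lgmn, above. Arrays were separated downward in 9.97% and upward in 9.99% of all genes, and in 18.4% and 19.3% of the genes of mean log2 at least 7; the share among the 40 brighter lysosome genes was 35.0% downward. Negative differences made up 69.8% of the 43, 47.8% of all genes and 45.8% of the brighter genes. The 3 Mist-targeted arrays did not contribute alike. Mist-targeted replicate 1 was the lowest of the 6 arrays for 24 of the 43 genes, or 55.8%, compared with 19.3% of all genes and 26.1% of the brighter ones. The median of the 43 genes against the Control mean was -0.12 on that array, -0.06 on replicate 2 and -0.02 on replicate 3, while the Control arrays had -0.02, 0.02 and 0.02. When that array was left out, 26 of the 43 were negative and their median difference was -0.04.

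**Figure D2:**
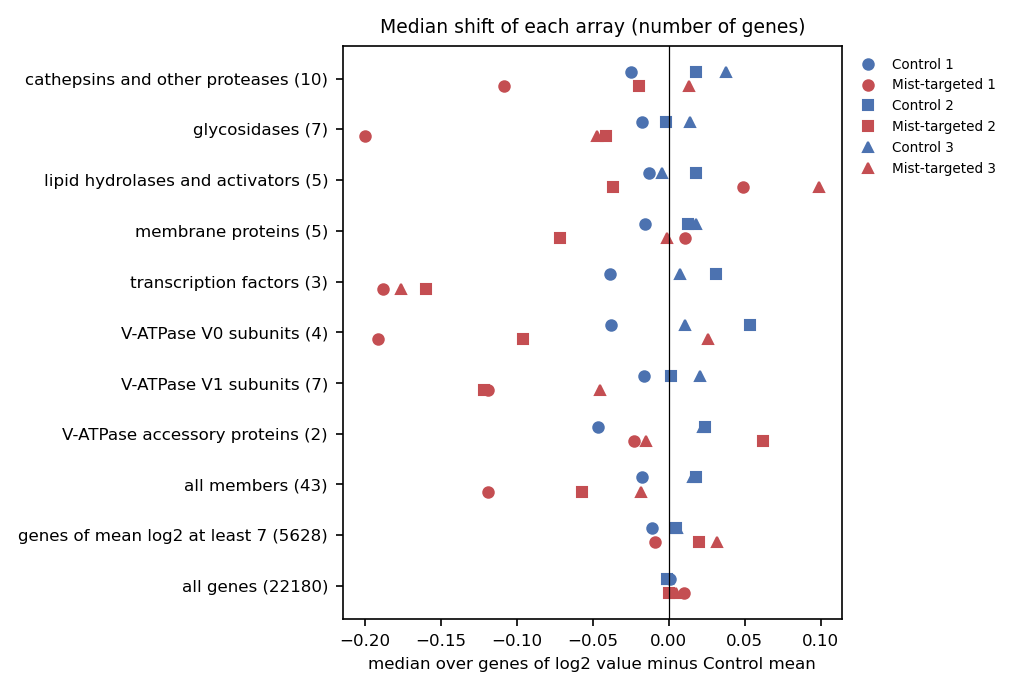
Median over the genes of a role group of the log2 value minus that gene's Control mean, for each of the 3 Control (blue) and 3 Mist-targeted (red) arrays, with the number of genes in parentheses and 2 rows of background genes at the bottom. Over all 43 genes the Mist-targeted arrays lie at -0.12, -0.06 and -0.02, and Mist-targeted replicate 1 (red circle) is the lowest of the 3.

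Correlations of whole arrays were 0.988 to 0.991 inside a group and 0.986 to 0.989 across groups, and array medians lay between 4.47 and 4.50. All 10 macrophage markers were above the array medians, but Mertk only slightly (means of 4.71 on Control and 4.73 on Mist-targeted arrays). Their mean log2 level was 9.77 to 9.82 on Control and 9.84 to 9.91 on Mist-targeted arrays. Of the 10, 1 was called, Fcgr1, with a difference of 1.01. The median of the 10 differences was -0.02, and 5 were negative. At an unadjusted p under 0.05 (limma) 2 were higher, Fcgr1 and Adgre1, and 2 lower, Ptprc and Cd14. The mean levels of T and NK cell markers (3.98 to 4.13), B cell markers (3.80 to 3.96), neutrophil markers (3.82 to 4.06), fibroblast markers (4.09 to 4.23) and epithelial markers (4.36 to 4.55) overlapped between the groups, and 0 markers of these other cell types were called (limma, 1 at an unadjusted p under 0.05, a neutrophil marker). Of those other lists, 2 fibroblast and 1 epithelial marker lay above the array medians. In RNA of whole cultures, fewer cells that express a gene and less RNA per cell cannot be told apart. The labels do not say whether the 3 samples of a group are separate cultures, so the spread among them may be technical. The p values use that spread after limma combined it with the spread of all probe sets.

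The transcription factors TFEB, TFE3 and MITF were all on the negative side. Mitf, which encodes a factor shared by macrophages, osteoclasts and pigment cells, read 7.57, 7.53 and 7.65 on the Control arrays and 7.23, 7.38 and 7.38 on the Mist-targeted arrays. Its groups did not overlap, and the difference of -0.26 did not pass (adjusted p = 0.38). Tfeb, the factor best known for driving lysosomal genes, was dim on these arrays, at 4.67, 4.87 and 4.64 with the Control and 4.54, 4.57 and 4.61 with the Mist-targeted GapmeR. These values lie close to the array medians; background was not measured, so the size of its difference (-0.15 ± 0.093, adjusted p = 0.681) may be understated. Tfe3, which acts beside TFEB on the same element, differed by -0.07 with overlapping groups.

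The element these factors bind was looked for in RefSeq promoter windows (GRCm38.p6, 250 bases before to 50 after a start), which matched 39 of the 45 genes; Asah1, Atp6v1c1, Atp6v1h, Atp6v1b2, Ctsb and Ctsh had no entry. The letters CACGTG, which read the same on both strands, were in a window of 15 of the 39 genes (38.5%), against 8.09% of the 27025 genes with a window. The longer TCACGTGA, which contains CACGTG, was in 8 of 39 (20.5%) against 1.13% of genes, and GTCACGTGAC, which contains both, was in 1 of 39, Cln3, against 0.37%. The 8 genes with TCACGTGA were Ctsa, Ctsd, Gla, Mcoln1, Cln3, Atp6v0d1, Atp6v0e and Atp6v1a. Windows around the motif are printed below for 6 genes from 4 roles, in capitals where the motif stands. These 6 were picked from the 15 that hold CACGTG, so that they share it follows from the choice. They are an aspartic protease gene (Ctsd, minus strand, chr7:142387908-142387937), 3 glycosidase genes (Gla, minus strand, chrX:134601182-134601211; Naglu, plus strand, chr11:101070009-101070038; Gaa, plus strand, chr11:119267811-119267840), a lysosomal calcium channel gene (Mcoln1, plus strand, chr8:3500462-3500491) and a V0 subunit gene (Atp6v0b, minus strand, chr4:117887348-117887377).
Ctsd: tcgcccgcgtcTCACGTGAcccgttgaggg
Gla: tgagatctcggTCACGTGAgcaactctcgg
Mcoln1: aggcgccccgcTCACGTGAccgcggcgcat
Naglu: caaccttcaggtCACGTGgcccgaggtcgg
Gaa: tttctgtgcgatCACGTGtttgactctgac
Atp6v0b: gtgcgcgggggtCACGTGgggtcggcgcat

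The 14 measured genes with CACGTG had a median difference of -0.08 with 10 negative, and the 23 measured genes whose windows lacked it had -0.07 with 15 negative. The 8 genes with the longer TCACGTGA, which are among the 14, had a median of -0.10 with 7 negative, from -0.29 to 0.08. Whether the motif bears on the difference was not tested. Genes with and without CACGTG included low and high values: Naglu at -0.33 and Lgmn at 0.14 have it, and Atp6v1d at -0.38 and Ctsc at 0.83 do not. The 1 window of Ctsc, the gene that was called, did not hold CACGTG. The 100 bases before its first RefSeq start (plus strand, chr7:88277924-88278023) are shown for comparison with the windows above.
Ctsc: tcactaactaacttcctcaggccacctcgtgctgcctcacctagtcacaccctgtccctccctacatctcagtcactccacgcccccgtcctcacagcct

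Among the 10 proteases, Ctsc rose and 9 did not pass the test. Of all genes 0.212% were called higher and 0.203% lower, and these and the other background shares given above apply to each role group below. Cathepsin C, also called dipeptidyl peptidase I, removes dipeptides from protein ends and activates the serine proteases of immune cell granules. Its log2 values were 8.57, 8.67 and 8.88 on the Control arrays and 9.51, 9.52 and 9.57 on the Mist-targeted arrays. The lowest Mist-targeted array was 0.63 above the highest Control array, and the Mist-targeted arrays lay closer together (SD 0.033) than the Control arrays (SD 0.16). The 95% interval of the difference was 0.59 to 1.06. The call ended when any 1 of the 6 arrays was left out, with adjusted p values of 0.079 to 0.176, although the difference stayed between 0.76 and 0.91. It also ended with the replicate number as a block (adjusted p = 0.115) and in a model without moderation (0.16). The difference was 0.83 in both of these fits, with an SE of 0.0913 and 0.0920, and 0 probe sets of the whole array were called in either.

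Cathepsins B, D, L, S, H and Z are the main endopeptidases and exopeptidases of the lysosome, and none of their genes passed. Ctsb read 12.68, 12.79 and 12.80 with the Control and 12.68, 12.77 and 12.80 with the Mist-targeted GapmeR. These groups overlapped almost fully, and the difference of -0.01 had an interval of -0.20 to 0.19; its sign turned positive under quantile normalization. Ctss, the elastolytic cathepsin of antigen-presenting cells, read 12.77, 12.77 and 12.71 on Control and 12.56, 12.60 and 12.66 on Mist-targeted arrays. Each Mist-targeted array was below each Control array, by a mean of 0.14 (SE 0.079, adjusted p = 0.644).

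Ctsa, which encodes the protective protein that stabilises beta-galactosidase and neuraminidase, read 11.38, 11.41 and 11.34 on Control and 11.03, 11.16 and 11.20 on Mist-targeted arrays. The groups did not overlap, and the difference of -0.25 did not pass (adjusted p = 0.385). Tpp1, a tripeptidyl peptidase gene, was likewise lower on all 3 Mist-targeted arrays (-0.15), and Lgmn, the gene of the asparaginyl endopeptidase that processes several cathepsins, was higher on all 3 (0.14). Neither passed. Ctsd (-0.04), Ctsl (0.10) and Ctsz (-0.09) had overlapping groups, as did Ctsh (-0.03), which was dimmer than the array medians. Mouse Ctsl has close relatives expressed in the placenta, and whether its probes share sequence with them was not checked here. Over the 10 proteases the median was -0.04 and the mean 0.03, of opposite sign; the median ran from -0.078 without Control replicate 1 to -0.0055 without Control replicate 3, and was -0.065 without Mist-targeted replicate 3 and -0.015 without Mist-targeted replicate 1.

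Glycosidases, which remove single sugars from glycans, glycolipids and glycosaminoglycans, had 6 of 7 negative differences and a median of -0.11, and 0 of the 7 passed (limma, 2 lower at an unadjusted p under 0.05). Of all genes 47.8% were negative and 5.79% lower at that p, and of genes of mean log2 at least 7, 45.8% and 11.1%. Hexa encodes the alpha subunit of beta-hexosaminidase, which degrades the ganglioside GM2. It read 11.26, 11.33 and 11.31 on Control and 10.88, 11.02 and 11.10 on Mist-targeted arrays. Every Mist-targeted value was lower, and the fold was 1.23 (adjusted p = 0.301). Naglu, the gene of an N-acetylglucosaminidase of heparan sulfate breakdown, read 8.07, 8.55 and 8.15 on Control and 7.84, 7.90 and 8.02 on Mist-targeted arrays. One Control array, replicate 2, stood well above the other 5, and the difference of -0.33 had an adjusted p of 0.497. Without that array the difference of Naglu was -0.19 (limma, adjusted p = 0.782).

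Gla, the alpha-galactosidase A gene, and Gusb, the beta-glucuronidase gene, were also lower on every Mist-targeted array, by means of 0.11 and 0.086. The groups of Gaa, the acid alpha-glucosidase that degrades glycogen (-0.11), Man2b1, an alpha-mannosidase (-0.06), and Manba, the beta-mannosidase (0.04), overlapped. Mist-targeted replicate 1 had the lowest median over the 7 glycosidase genes, -0.20, against -0.04 and -0.05 on the other Mist-targeted arrays, and without that array the median difference of the 7 was -0.069.

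Lipid hydrolases and their activators lay on both sides of 0, with 3 of 5 positive and a median of 0.06. That median moved with single arrays, to 0.015 without Mist-targeted replicate 3, 0.022 and 0.024 without Control replicates 2 and 1, 0.031 without Mist-targeted replicate 1 and 0.10 without Mist-targeted replicate 2, and it was 0.014 with probe set means. Lipa, the acid lipase that releases cholesterol and fatty acids from lipoprotein lipids, read 11.93, 11.96 and 11.94 with the Control and 11.86, 11.88 and 11.90 with the Mist-targeted GapmeR. The groups did not overlap although the difference was only -0.07 (SE 0.076, adjusted p = 0.867), since both groups had an SD of 0.016. Smpd1, the acid sphingomyelinase gene, read 7.24, 7.08 and 7.07 on Control and 7.36, 7.03 and 7.42 on Mist-targeted arrays. Here the Mist-targeted arrays spread on both sides of the Control values (0.14 ± 0.12), and a second, dimmer probe set of the gene gave -0.11 ± 0.10, of opposite sign. Asah1, the acid ceramidase gene (0.09), Ppt1, which encodes a thioesterase that removes palmitate from proteins (0.06), and Psap, the precursor of the saposin activators (-0.07), had overlapping groups.

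Of the 5 membrane protein genes none passed, none had separated groups (limma, 0 at an unadjusted p under 0.05), and the median was 0.00. Groups were separated in 20.0% of all genes and in 37.7% of genes of mean log2 at least 7. Lamp1 and Lamp2 encode the most abundant glycoproteins of the lysosomal membrane. Lamp2 read 10.49, 10.50 and 10.52 on Control and 10.67, 10.51 and 10.64 on Mist-targeted arrays, where replicate 2 fell within the Control range (0.11 ± 0.083, adjusted p = 0.77). Lamp1 had a difference of -0.06. Mcoln1, the calcium channel gene whose promoter window is shown above, read 8.38, 8.45 and 8.48 on Control and 8.23, 8.37 and 8.43 on Mist-targeted arrays, with overlapping groups (-0.10 ± 0.090, adjusted p = 0.818). Cd63, a tetraspanin of late endosomes and lysosomes, differed by 0.00 and Cln3, the gene of a membrane protein mutated in juvenile Batten disease, by 0.08. The interval of each of these 5 differences lay within a 1.5-fold change.

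**Figure D3:**
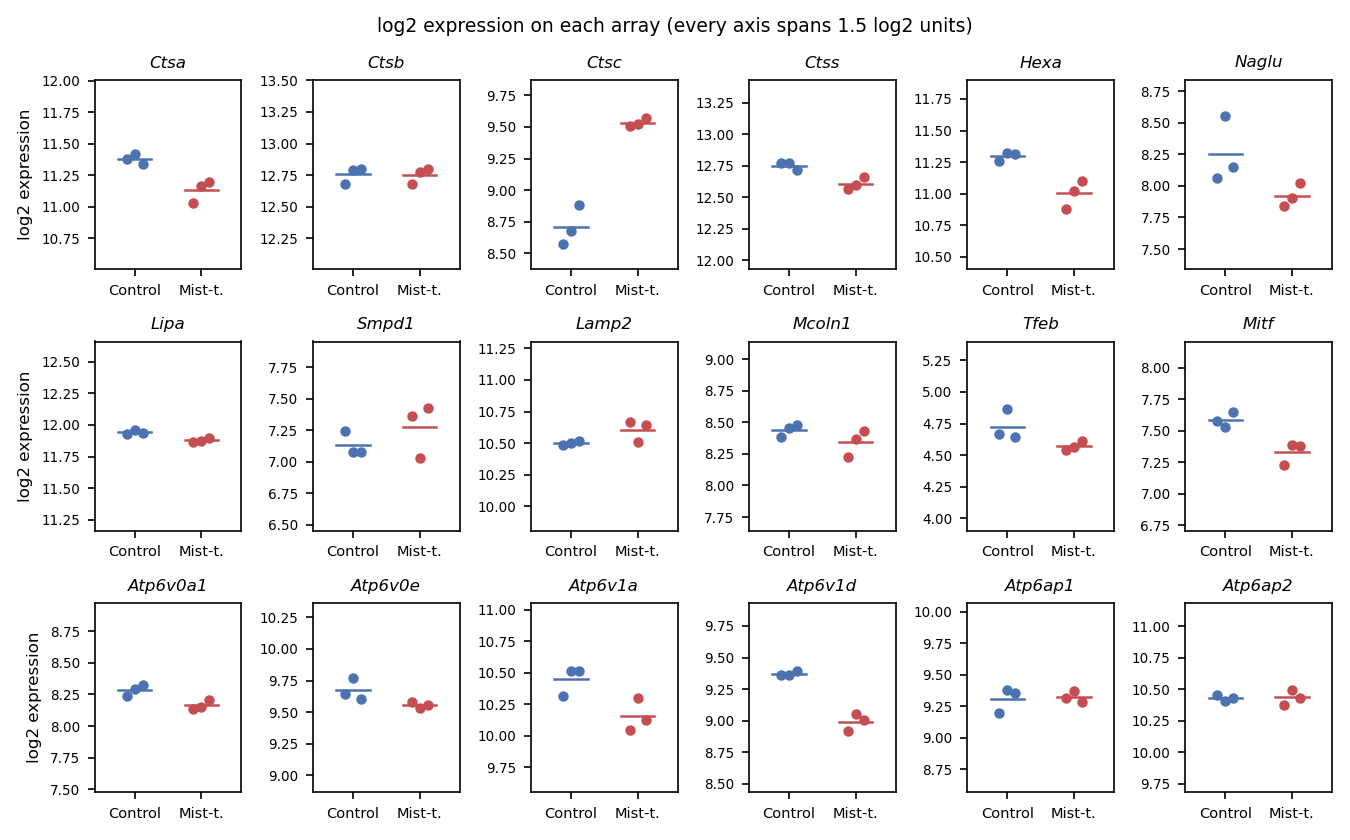
The log2 expression of 18 genes on each of the 3 Control (blue) and 3 Mist-targeted (red, Mist-t.) arrays; horizontal lines are group means and every vertical axis spans 1.5 log2 units. Ctsc is higher on all Mist-targeted arrays (9.51 to 9.57 against 8.57 to 8.88), while Ctsb and Atp6ap2 overlap almost fully.

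The V-ATPase genes had 9 of 13 negative differences and a median of -0.05, and 0 of 13 passed (limma, 3 lower at an unadjusted p under 0.05). The 3 were V1 subunit genes. The background shares were 47.8% negative and 5.79% lower at that p over all genes, and 45.8% and 11.1% over genes of mean log2 at least 7. Atp6v1d encodes the D subunit of the central rotor; it read 9.36, 9.36 and 9.39 on Control and 8.92, 9.05 and 9.01 on Mist-targeted arrays. The highest Mist-targeted value was 0.31 below the lowest Control value, and of the 43 genes this was the second smallest p, at 1.30-fold (95% interval of the log2 difference -0.57 to -0.19, adjusted p = 0.144). It passed in 2 alternative fits: with a trended, robust prior (adjusted p = 0.0492) and among probe sets with a single listed gene (0.0335). Atp6v1a, the gene of the catalytic A subunit, read 10.31, 10.52 and 10.51 on Control and 10.05, 10.30 and 10.13 on Mist-targeted arrays. The groups did not overlap, with only 0.014 between the lowest Control and the highest Mist-targeted array (-0.29 ± 0.10, adjusted p = 0.412).

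Atp6v1c1, the gene of the C subunit that links V1 to V0, differed by -0.20 with separated groups. The other V1 genes had overlapping groups and values near 0: Atp6v1b2, the nucleotide-binding B2 subunit (-0.04, and -0.02 at a second probe set), Atp6v1e1, a stalk subunit (-0.03), and Atp6v1h, a regulatory subunit (-0.05). Atp6v1f was dim, at 4.41 to 4.82, and differed by 0.14.

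In the V0 sector 3 of 4 measured genes were on the negative side. Atp6v0a1, an isoform of the proton-conducting a subunit, read 8.23, 8.29 and 8.32 on Control and 8.14, 8.15 and 8.20 on Mist-targeted arrays (-0.12 ± 0.079, adjusted p = 0.71). Atp6v0e read 9.65, 9.77 and 9.60 on Control and 9.58, 9.53 and 9.56 on Mist-targeted arrays (-0.12 ± 0.084, adjusted p = 0.746). Both had separated groups. Atp6v0b (0.04) and Atp6v0d1 (-0.06) did not, and in each the 3 Mist-targeted arrays spread more widely than the difference itself. The accessory proteins Ac45 and the prorenin receptor, encoded by Atp6ap1 and Atp6ap2, assist assembly of the pump. Atp6ap1 read 9.20, 9.38 and 9.35 on Control and 9.32, 9.37 and 9.28 on Mist-targeted arrays, and Atp6ap2 read 10.45, 10.41 and 10.43 on Control and 10.38, 10.50 and 10.43 on Mist-targeted arrays. Their differences were 0.01 ± 0.088 and 0.00 ± 0.079; that of Atp6ap2 turned negative when arrays were centred on their medians, and its interval ran from -0.18 to 0.19.

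Other genes of the same pathway, 82 on 6 lists, were read in the same way, and 76 had a probe set of their own. Of these 76 genes, 1 fell and 0 rose (limma), and their median was -0.04. Over all genes 0.203% were called lower and 0.212% higher. At an unadjusted p under 0.05, 14 of the 76 (18.4%) were lower and 2 higher, against 5.79% and 5.24% of all genes. Among genes of mean log2 at least 7 those shares were 11.1% and 10.1%. Groups were separated in 38.2% of the 76, in 20.0% of all genes and in 37.7% of those brighter genes. The same backgrounds apply to each list below. The gene that fell was Sort1, 1 of 9 on the list of hydrolase tagging and sorting. It encodes sortilin, a receptor that carries hydrolases and other cargo from the Golgi to endosomes. Sort1 read 5.70, 5.78 and 5.68 on Control and 5.10, 5.15 and 5.10 on Mist-targeted arrays. The groups were 0.53 apart at their nearest, and the difference was -0.61 ± 0.079 (1.52-fold, adjusted p = 0.0418). A second probe set, dimmer than the array medians, gave -0.20 ± 0.13, and the call ended when both were averaged (-0.40, adjusted p = 0.183), with a trended, robust prior (0.059), with the replicate block (0.144), without moderation (0.0903), and without any 1 of the 6 arrays (0.102 to 0.196). The mannose 6-phosphate receptor genes M6pr (0.04) and Igf2r (0.00), named beside Sort1 after their values were seen, differed little.

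Among 13 further V-ATPase subunits and isoforms 0 passed (limma, 2 lower at an unadjusted p under 0.05). Atp6v0d2, the d subunit isoform abundant in osteoclasts, read 9.76, 9.65 and 9.52 on Control and 8.82, 9.11 and 8.94 on Mist-targeted arrays. It was lower on all 3 Mist-targeted arrays, 1.61-fold by the means, with an adjusted p of 0.0691; it passed with the trended, robust prior (0.0262) and among listed probe sets (0.00345). The log2 ratio of Atp6v0d2 to the ubiquitous isoform Atp6v0d1, a comparison chosen after the values were seen, was -0.34, -0.47 and -0.57 on Control and -1.03, -0.93 and -1.29 on Mist-targeted arrays. This ratio changed by -0.62 between the group means (exact permutation test, two-sided, p = 0.1, the smallest that 3 against 3 allows). Because the ratio was chosen from these same values, that p cannot serve as a test of it. Atp6v1g3 was dim and differed by -0.27 (adjusted p = 0.483).

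Of 22 further hydrolases 16 were on the negative side and 0 passed (limma, 5 lower at an unadjusted p under 0.05). Ctsk, the collagen-degrading cathepsin of osteoclasts, read 11.56, 11.52 and 11.53 on Control and 11.18, 11.23 and 11.20 on Mist-targeted arrays. Its 2 groups were tight and apart (-0.33 ± 0.076, adjusted p = 0.166), and the gene passed with the trended, robust prior (0.0342). Ctsf was lower by a like amount, -0.35 ± 0.080 (adjusted p = 0.17, and 0.048 among listed probe sets).

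Of 16 further membrane and lipid transport proteins none passed (limma; 3 were lower with an unadjusted p under 0.05, and 2 higher). Ctns, the gene of the lysosomal cystine exporter, read 8.76, 8.94 and 8.87 on Control and 8.30, 8.28 and 8.42 on Mist-targeted arrays (-0.52 ± 0.090, adjusted p = 0.0808). It passed with the trended, robust prior (0.0329) and among listed probe sets (0.00808). Slc38a9, which encodes an arginine-sensing transporter that signals to mTORC1, differed by -0.44 ± 0.094 (adjusted p = 0.144, and 0.0253 among listed probe sets).

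In the list of lysosomal mTORC1 recruitment, 9 of 12 were on the negative side and 0 passed (limma, 3 lower at an unadjusted p under 0.05). Rragd, the gene of the RagD GTPase, read 4.84, 4.84 and 4.75 on Control and 4.26, 4.09 and 4.22 on Mist-targeted arrays. Its groups were well apart (-0.62 ± 0.086), with an adjusted p of 0.0503, just above the threshold; the Mist-targeted values lay below the array medians, so the size is uncertain. Rragd passed in 6 alternative fits: with the trended, robust prior (0.0473), without the dimmest 40% of probe sets (0.0393), with quantile normalization (0.0462), median centring (0.0484) or array weights (0.0477), and among listed probe sets (0.00261). It did not pass with probe set means (0.051), with the replicate block (0.146), without moderation (0.145) or without any 1 array (0.114 to 0.221). Fnip1, a folliculin partner that acts on RagC and RagD, differed by -0.30 ± 0.086 (adjusted p = 0.26). The 4 cystatins and other cathepsin inhibitors were all on the positive side, and 0 passed (limma, 0 at an unadjusted p under 0.05). Cst3, cystatin C, was higher on all 3 Mist-targeted arrays by 0.17 ± 0.077 (adjusted p = 0.551), and Cst6 was dim (0.12 ± 0.087). Cst3 has 2 probe sets, and their mean gave 0.26 ± 0.085 (limma, adjusted p = 0.36).

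**Figure D4:**
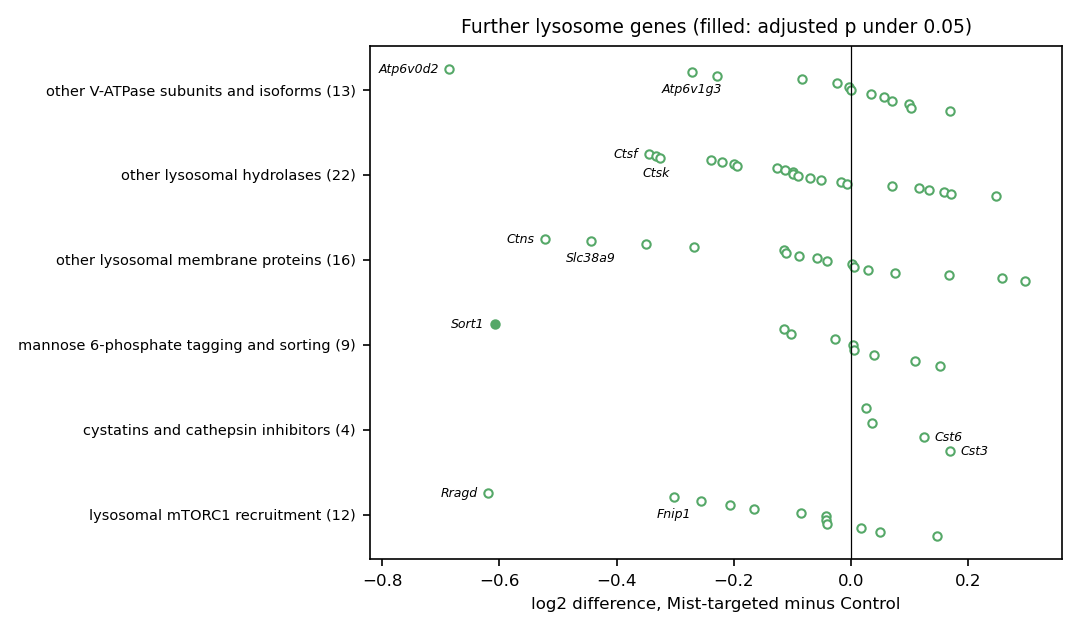
The log2 difference (Mist-targeted minus Control) of 76 further lysosome genes on 6 lists, with the number of genes in parentheses; the filled point has an adjusted p under 0.05 and the vertical offset within a list only separates points. Sort1 at -0.61 is the one filled point, with Atp6v0d2 (-0.69), Rragd (-0.62) and Ctns (-0.52) beside it on the negative side.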

How the data were processed

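Labelled RNA of 6 samples was measured on expression arrays. Each array has 1 column of deposited log2 expression values. The submitters' processing notes name RMA and Partek. For their versions, roles and settings, and for the array design, nothing was given in the sources used. If RMA was run so that it made the arrays' distributions alike, it would reduce a change common to most transcripts. Whether it was run so was not given. Values were used as deposited; 0 columns were left out. Of 41345 probe sets, 23521 had 1 gene symbol, 1814 several and 16010 none listed. Differences are Mist-targeted minus Control estimated with limma 3.58.1 (R 4.3.3) by lmFit and eBayes in a two-sided test with no covariate. Benjamini-Hochberg adjustment was over all probe sets, and 95% intervals use 7.48 degrees of freedom. The fit was checked on simulated data with changes larger than any lysosome gene showed, so changes of their size were not covered. The number of arrays limits the precision (median SE 0.11 over all probe sets). Alternatives were a replicate block, a trended robust prior, no moderation, a filter on the dimmest 40%, quantile normalization, median centring, array weights, probe set means, listed probe sets only, and leaving out each array. Genes and lists were chosen with earlier results of these data known, so lists are described by counts and medians without a test. Named in full were genes past the threshold, per role the 2 of smallest p, and the 2 of highest mean; per further list those past the threshold or the 2 of smallest p. Promoter windows are from RefSeq. Tables and plots were made in Python 3.11.15 (pandas 2.3.3, matplotlib 3.10.9).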

Additional observations from a re-analysis of the deposited data

How the results depend on the processing

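The median difference of the 43 genes stayed negative, from -0.08 to -0.04, under every alternative run on it. The number of probe sets called, 105 with limma, was 287 with a trended robust prior, 161 without the dimmest 40%, 713 among listed probe sets, and 0 with the replicate block (4368 at an unadjusted p under 0.05) or without moderation (4106); leaving out arrays gave 2 to 40. The call of Ctsc higher was 0 genes with the block (1 at an unadjusted p under 0.05), without moderation (2) and in all 6 fits that left out an array (0 to 0). Genes called lower went from 0 to 1, Atp6v1d, with the trended robust prior and among listed probe sets. Further lysosome genes called numbered 1, or 4 with the trended robust prior, 2 without the dimmest 40%, with quantile normalization, median centring or array weights, 6 among listed probe sets, and 0 with the block, without moderation, with probe set means (15, 16 and 17 at an unadjusted p under 0.05) or when an array was left out (0 to 0). The median of the 5 membrane protein genes ranged from -0.062 to 0.054 over fits that left out an array, that of the 5 lipid hydrolases and activators from 0.015 to 0.10, that of the 10 proteases from -0.078 to -0.0055 and that of the 7 glycosidases from -0.13 to -0.069. Signs turned for Ctsb under quantile normalization (0.0147) and for Atp6ap2 with median centring (-0.0036). Leaving out arrays gave -0.045 to 0.029 for Ctsb, -0.045 to 0.048 for Atp6ap1 and -0.027 to 0.032 for Atp6ap2. For the changes not explained by fewer genes or arrays, the cause was not tested. Deviations of samples with the same replicate number correlated at 0.20, 0.096 and 0.033, and 5 of 6 samples correlated best with their own number. Probe sets at an unadjusted p under 0.05 numbered 4009 in the main fit and 4368 with the replicate block. Whether the numbers pair samples was not tested, and the main fit used no block.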
